A study of Mus musculus with 10 samples.

Results

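The centrosome and intraflagellar transport genes examined here were the 47 of 13252 genes in the deposited table whose symbol begins with Ift, Cep or Bbs and a digit, or with Tctn or Nphp, together with Ccdc46, the older symbol of Cep112. There were 12 Ift genes, 20 Cep genes and Ccdc46, 8 Bbs genes, 3 Tctn genes and 3 Nphp genes, so the set also holds the BBSome and the transition zone of the cilium besides the centrosome and intraflagellar transport. Their RNA was compared between Helios+ and Helios- regulatory T cells (Treg cells) of the mouse, with 5 libraries from each population. Helios+ cells had been sorted as CD4+RFP+GFP+ and Helios- cells as CD4+RFP+GFP-. All cells were thus CD4+RFP+, and the GFP signal is tied by the labels to Helios, a zinc finger factor of the Ikaros family encoded by Ikzf2. Strain, age, organ, treatment and the meaning of RFP are not stated in the labels. By contrast, the design text of the series names wild-type and knockout cells, so a difference is described here between sorted populations and not as an effect of removing Helios. Nothing says that the 5 libraries of a group came from separate mice, so the p-values reflect only the spread among these libraries, which may be technical.

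The centrosome is a pair of centrioles in a protein matrix and is the main site from which microtubules grow. In most cell types the older centriole can build a primary cilium, a sensory projection that is filled by intraflagellar transport (IFT). In IFT, trains made of the IFT-B and IFT-A complexes are carried out by kinesin-2 and back by dynein-2, the BBSome is an adaptor for membrane cargo on these trains, and the transition zone at the ciliary base gates entry. Lymphocytes are known for lacking a primary cilium, but T cells move their centrosome to the contact with another cell and use IFT proteins such as IFT20 in the traffic of T cell receptors to that contact.

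Libraries held 4872348 to 6948692 reads recovered from the table. Ikzf2 had 487 ± 56.5 normalized counts in the Helios- and 10367 ± 456 in Helios+ libraries (mean ± SD, n = 5 each, as for all levels below, while ± after a log2 difference is its SE), with an exact two-sided permutation p of 0.00794, the smallest that 252 assignments can give. Of the Treg and T cell markers, Foxp3 and Il2ra had means of 3526 and 3900 normalized counts in Helios- libraries and 3570 and 4648 in Helios+ libraries. By limma 2 of 6, Il2ra and Ctla4, were called higher (adjusted p = 0.0249 and 0.0322). Markers of other cells were present at lower levels than Foxp3 and Il2ra. The sum of 7 B cell markers, led by Cd22 and Ms4a1, ran from 1717 to 2412 in Helios- and from 1499 to 2124 in Helios+ libraries, with 1 of 7, Ebf1, called lower. The sum of 8 macrophage or monocyte markers, led by Lyz2 and Itgam, ran from 209 to 344 and from 281 to 542, with 1 of 5 tested, Csf1r, called higher. Of 5 dendritic cell markers, led by Siglech and Itgax, 1 of 4 tested, Zbtb46, was called higher. Zbtb46 passed the minimum mean of 10 only through its Helios+ libraries, at 14.9 against 6.70 normalized counts. The sums of the 5 markers were 57.4 to 95.0 in Helios- and 81.2 to 101 in Helios+ libraries. They were 347 to 413 and 311 to 377 for Cd8a and Cd8b1, and 81.5 to 136 and 103 to 130 for 3 natural killer markers led by Eomes and Klrb1c, where limma, edgeR and DESeq2 called 0 and Cd8b1 alone had an unadjusted limma p under 0.05. Of 5 stromal or epithelial markers, Epcam was called higher, at 144 against 18.6 normalized counts, Pecam1 lower, at 775 against 1509, and Col1a1, Col1a2 and Cdh5 stayed below a mean of 10. Alas2, of erythroid cells, had at most 19.7 normalized counts in any library. Their part in the results on the centrosome and IFT genes was not tested.

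The promoters of these genes are shown first because many cilium genes are known to carry the X-box, the element bound by RFX transcription factors. RefSeq windows of build GRCm38.p6, from 250 bases before to 50 after a start, were matched by symbol for 38 of the 47 genes. The element was searched on both strands with either of 2 spacings, as GTNNCC followed by 2 or 3 further bases and then GNAAC. At least 1 match to either was found in 11 of the 38 genes (28.9%), against 1140 of 27025 genes with a promoter in the table (4.22%). A match is a description of letters and not a shown binding site. The 11 were Bbs1, Bbs4, Bbs7, Ccdc46, Cep110, Ift57, Ift74, Nphp4, Tctn1, Tctn2 and Tctn3. Of the members called below, 7 had a window, and 2 of these held a match, Ccdc46 and Ift57. Bbs9, Cep250, Cep290, Cep68 and Cep97 held none, and Ift122, Ift80, Ift81 and Cep350 had no window. Ccdc46 and Ift57 are printed as the called genes with a match, and Cep290 as a called gene without. The stretches start 250 bases before the RefSeq start, for Ccdc46 the first of 3 in the table. They end at most 30 bases past the start of the gene in GENCODE M21, and capitals mark X-box matches. They lie on the plus strand at chr11:108425016-108425221 (Ccdc46), chr16:49699044-49699262 (Ift57) and chr10:100487332-100487581 (Cep290).
Ccdc46: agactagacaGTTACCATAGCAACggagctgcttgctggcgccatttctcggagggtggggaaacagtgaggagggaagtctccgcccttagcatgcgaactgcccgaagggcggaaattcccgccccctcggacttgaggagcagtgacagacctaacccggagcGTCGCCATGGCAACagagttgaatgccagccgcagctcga
Ift57: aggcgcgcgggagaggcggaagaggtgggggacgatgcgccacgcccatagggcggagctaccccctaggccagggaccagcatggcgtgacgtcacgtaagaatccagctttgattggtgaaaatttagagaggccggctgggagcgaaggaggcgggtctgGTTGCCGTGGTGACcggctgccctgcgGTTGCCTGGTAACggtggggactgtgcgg
Cep290: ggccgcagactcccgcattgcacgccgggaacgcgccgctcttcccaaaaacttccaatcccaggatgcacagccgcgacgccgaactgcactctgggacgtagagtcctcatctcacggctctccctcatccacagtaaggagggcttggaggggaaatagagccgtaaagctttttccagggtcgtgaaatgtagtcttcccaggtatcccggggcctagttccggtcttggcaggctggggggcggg
The printed window of Ccdc46 thus held 2 matches, which began at -240 and -84 relative to the first of its 3 RefSeq starts. In the windows of its other starts no match was found. The window of Ift57 also held 2, at -87 and -60. The match of Ift57 at -87 reads as an X-box on the opposite strand only. Single matches of 3 other members are given to show how near the letters come to each other. That of Tctn2 reads as an X-box on the opposite strand only.
Bbs7: GTTGCCTTGGAAAC
Tctn2: GTTACCATGGCTAC
Tctn3: GTTGCCAGGTAAC

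Of the 47 genes, 41 reached a mean of 10 normalized counts over all libraries and were tested. By limma's moderated test on log2(normalized count + 1) over all 10718 genes tested, with Benjamini-Hochberg adjustment and a threshold of 0.05, 7 were higher in Helios+ cells and 4 were lower. The higher genes were Ccdc46, Ift122, Cep290, Ift81, Ift57, Cep250 and Ift80, and the lower genes Cep68, Bbs9, Cep97 and Cep350. Together these were 26.8% of the genes tested, where 24.8% of all genes tested were called, 14.1% higher and 10.7% lower. The share called was therefore near the background, and without Ccdc46, which the rule names singly, it was 25%. On recovered reads, edgeR called 7 of the 41 genes higher and 4 lower, where it called 14.6% of all genes tested higher and 10% lower (24.6% in all). DESeq2 called 8 higher and 4 lower, where it called 14.9% and 11.7% of all genes (26.6% in all). Limma with no filter on low values called 8 of the 47 genes higher and 4 lower, where it called 13.6% and 8.93% of all 13252 genes (22.5% in all). The median log2 change over the 41 genes was 0.10, and over all genes tested -0.02. In bulk RNA, fewer cells that carry a transcript and less of it per cell cannot be told apart. Without Helios+ replicate 5 the count of lower genes fell to 2, with Bbs9 and Cep350 lost, and that of higher genes stayed at 7 with Cep250 lost and Bbs12 gained. The groups did not overlap for 11 of the 41 genes, against 19.5% of all genes tested. Those 11 included Cep78, which was not called, and left out Cep250, which was. The minimum mean was taken over all libraries, so a gene low in 1 population could pass it through the other. Ccdc46, Ift81, Ift122 and Cep55 passed it through their Helios+ libraries, with Helios- means of 2.43, 8.73, 9.26 and 8.07 normalized counts.

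**Figure D1:**
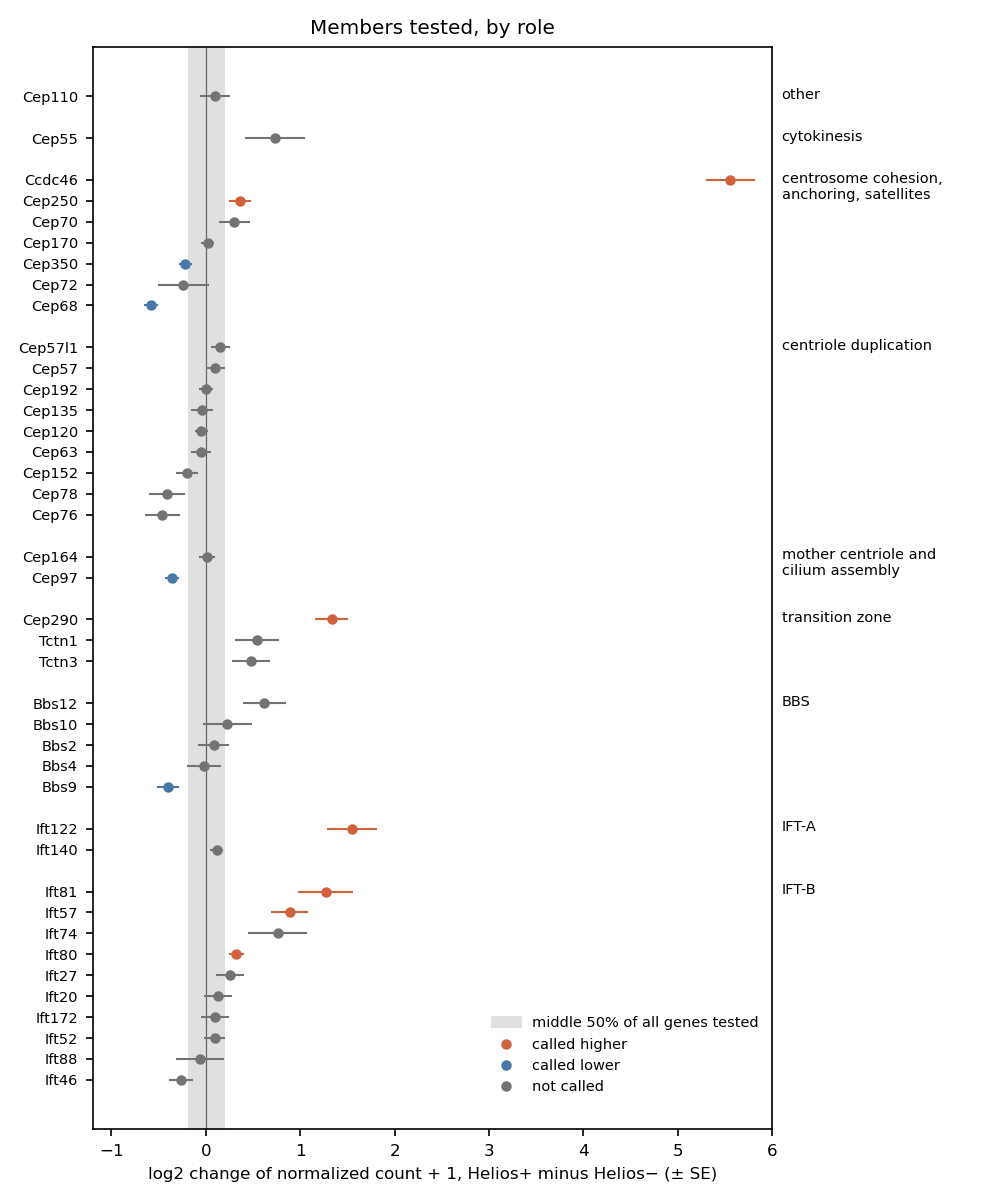
Difference in log2(normalized count + 1) between Helios+ and Helios- cells, with its SE, for 40 of the 41 genes tested (positive where higher in Helios+), arranged by role, with the grey band holding the middle 50% of all genes tested. Ccdc46 stands at 5.56, and the other called genes lie between -0.58 and 1.55. Limma called 0 of the 9 centriole duplication genes, against 24.8% of all genes tested.

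IFT-B builds the backbone of the outward train. In Helios+ cells 3 of its 10 members were higher and 0 lower, where 14.1% of all genes tested were called higher and 10.7% lower. At an unadjusted limma p under 0.05, and by edgeR and DESeq2, 0 were lower as well. Limma blocked on replicate number called 4 higher. Ift81, which with Ift74 forms the part of the train known to bind tubulin (chromosome 5, 122550204 to 122614518, minus strand), had 8.20, 6.35, 10.9, 9.41 and 8.76 normalized counts in Helios- libraries 1 to 5. In Helios+ libraries 1 to 5 it had 23.1, 18.4, 19.7, 41.8 and 15.1. The groups did not overlap, and replicate 4 was the highest of the Helios+ libraries by a wide margin. The difference in means was 2.70-fold, with a log2 difference of 1.27 ± 0.29 (SE; limma adjusted p = 0.00423). Ift81 and Ift122 lie among the 772 genes tested with a mean of 10 to 20 normalized counts, whose median log2 change was 0.18 and of which 151 were called higher and 33 lower (23.8% in all), so that calls in the direction of Ift81 and Ift122 were the more common at this level.

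Ift57, a peripheral IFT-B subunit (chromosome 16, 49699233 to 49765126, plus strand, 7.86% of exon bases shared with a gene on the other strand), had 26.9, 18, 15.3, 20.5 and 21.4 normalized counts in Helios- libraries. In Helios+ libraries it had 41.9, 30.1, 41.9, 40.8 and 37.1. No value was shared between the groups, although the highest Helios- library, replicate 1, came close to the lowest Helios+ library, replicate 2. The change was 1.88-fold in means and 0.89 ± 0.20 on the log2 scale (limma adjusted p = 0.00314).

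Ift80, an IFT-B subunit mutated in Jeune-type skeletal ciliopathy (chromosome 3, 68892499 to 69004570, minus strand), was the most abundant of the IFT genes both as a count and per length. Its mean over the 10 libraries was 163 normalized counts per kilobase of exon, followed by 75.3 for Ift20, 49.96 for Ift52 and 45.1 for Ift140, while Ift81 had 2.77 and Ift122 1.92. Helios- libraries had 2043, 1944, 1487, 1752 and 1780 normalized counts of Ift80, and Helios+ libraries 2318, 2319, 2172, 2246 and 2162. Helios+ libraries lay in a narrow range above all Helios- libraries. The change was small, 1.25-fold in means and 0.32 ± 0.08 on the log2 scale (limma adjusted p = 0.00657).

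The other IFT-B members did not pass the test. Ift74, the partner of Ift81, had 21.9 ± 9.29 normalized counts in the Helios- population and 35.3 ± 8.11 in Helios+ cells, and was called when replicate number was blocked (limma adjusted p = 0.0878 without and 0.0151 with the block) or Helios- replicate 3 was left out. Ift20 had 110 ± 24.3 and 119 ± 18.7, and Ift52, a core subunit, 136 ± 17.3 and 144 ± 15.1. The log2 changes of Ift27, Ift172, Ift88 and Ift46 were 0.25, 0.10, -0.06 and -0.27, with adjusted p from 0.153 to 0.892.

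IFT-A, the complex of the return train and of membrane protein entry, had 1 of 2 members higher, where 14.1% of all genes tested were called higher. Ift122 (chromosome 6, 115853470 to 115926699, plus strand) had 10.5, 10.6, 8.74, 7.70 and 8.76 normalized counts in Helios- libraries 1 to 5. It had 17.8, 20.9, 34.2, 41.8 and 37.1 in the Helios+ libraries, from 45 reads in all Helios- and 157 in all Helios+ libraries. Every Helios+ library was above every Helios- library, and replicates 3, 4 and 5 were well above replicates 1 and 2. The difference was 3.28-fold in means, a log2 difference of 1.55 ± 0.27 (limma adjusted p = 0.000468). Ift140, the other IFT-A member, was far more abundant per length, and differed by 0.12 ± 0.07 on the log2 scale, at 360 ± 14.2 against 391 ± 23.8 normalized counts (limma adjusted p = 0.241).

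IFT and BBS genes that carry other symbols were counted from a list of 18, of which 11 were tested, with 3 higher and 0 lower (27.3% called, near the 24.8% of all genes tested). Traf3ip1, an IFT-B subunit, was lower at an unadjusted limma p under 0.05 and with limma's replicate block (adjusted p = 0.0144), and edgeR and DESeq2 called 0 lower. The 3 higher genes were Wdr35 and Wdr19, which encode further IFT-A subunits, and Wdr60, an intermediate chain of dynein-2. Wdr35 had 10.5, 4.23, 3.28, 3.42 and 7.79 normalized counts in the 5 Helios- libraries and 21.0, 30.9, 23.1, 20.4 and 26.7 in Helios+ libraries, without overlap. It was 4.17-fold higher in means, with a log2 difference of 1.99 ± 0.32 (limma adjusted p = 0.000252). Wdr35 reached the minimum mean only through its Helios+ libraries. Wdr60 was 2.04-fold and Wdr19 1.67-fold higher. Ttc21b, the remaining IFT-A gene, had a log2 difference of 0.23 (limma adjusted p = 0.161). Of 5 IFT-A genes in the table, under either kind of name, 3 were called higher, where 14.1% of all genes tested were called higher. Of the called genes, Ift122, with a Helios- mean of 9.26 normalized counts, reached the minimum mean through its Helios+ libraries, as did Wdr35. The count is therefore tilted toward higher calls.

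Of 5 tested motor genes of the cilium, 3 were higher and 0 lower, with 0 lower also at an unadjusted limma p under 0.05 and by edgeR and DESeq2. Of all genes tested, 14.1% were called higher and 10.7% lower. Kif3b, a motor subunit of kinesin-2, had 417 ± 12.2 normalized counts in the Helios- population and 582 ± 28.3 in Helios+ cells, a log2 difference of 0.48 ± 0.06 (limma adjusted p = 2.82e-05). Kifap3, its cargo adaptor, was 1.60-fold and Dync2h1, the heavy chain of dynein-2, 1.38-fold higher. Kif3a, which pairs with Kif3b, had 60.8 against 51.3 normalized counts in means (limma adjusted p = 0.374).

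The BBS genes showed no common direction. Bbs9, a subunit of the BBSome (chromosome 9, 22475715 to 22888280, plus strand), was the only one of 5 tested that was called, where 24.8% of all genes tested were called. Its Helios- libraries had 139, 121, 121, 109 and 108 normalized counts, and its Helios+ libraries 96.4, 92.8, 101, 91.3 and 71.9. Every Helios+ library was below every Helios- library, with the nearest of them only a few counts apart. The level was 1.32-fold lower in Helios+ cells, a log2 difference of -0.40 ± 0.12 (limma adjusted p = 0.0223), and the call was lost without Helios+ replicate 5 (adjusted p = 0.0582). Bbs12, a chaperonin-like protein for BBSome assembly, had 30.6 ± 10.3 and 46.7 ± 11.02 and was called higher by DESeq2 and with the block (limma adjusted p = 0.0614 without and 0.0166 with it). Bbs2, Bbs4 and Bbs10 had log2 changes of 0.08, -0.02 and 0.23. Bbs1, Bbs5 and Bbs7 had means of at most 7.32 normalized counts in either group and were not tested.

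At the transition zone, Cep290 was higher in Helios+ cells. Cep290 encodes a large coiled-coil protein that links microtubules to the ciliary membrane (chromosome 10, 100487558 to 100574840, plus strand, 7.58% of exon bases shared with a gene on the other strand). It had 67.9, 52.9, 43.7, 45.3 and 42.8 normalized counts in the 5 Helios- libraries and 179, 135, 102, 124 and 107 in Helios+ libraries. Helios+ libraries were all above Helios- libraries, and replicate 1 was the highest in both. The difference was 2.56-fold, a log2 difference of 1.33 ± 0.17 (limma adjusted p = 2.67e-05). Tctn3 and Tctn1, of the tectonic complex, had 40.3 ± 6.41 against 28.9 ± 6.92 and 25.1 ± 4.88 against 17.2 ± 4.75 normalized counts. Both had higher values in Helios+ cells in 5 of 5 pairs of equal number but were not called (limma adjusted p = 0.0946 and 0.105), and 25.5% of the exon bases of Tctn1 overlap other genes.

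Nphp4 and Tctn2, also of the transition zone, were below the minimum mean and were not tested. Nphp4 had 22 reads over the Helios- and 32 over the Helios+ libraries, and Tctn2 2 and 8.

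The partners of these proteins at the transition zone, a list of 21 genes chosen by function, had 7 of 14 tested higher and 0 lower, where 14.1% of all genes tested were called higher. At an unadjusted limma p under 0.05, and by edgeR and DESeq2, 0 were lower as well. The median log2 change of the 14 was 0.31, against -0.02 over all genes tested. Cc2d2a, a coiled-coil protein of the Meckel and Joubert syndrome module, had 1.17, 2.12, 0, 2.57 and 0 normalized counts in the 5 Helios- libraries and 22.0, 18.4, 41.0, 35.9 and 16.2 in Helios+ libraries. Its 6 reads over the Helios- libraries stood against 142 over the Helios+ libraries, a log2 difference of 3.78 ± 0.46 (limma adjusted p = 1.53e-05). Every Helios+ library was far above the Helios- libraries. Cc2d2a reached the minimum mean through its Helios+ libraries alone. Of the genes tested with a mean of 10 to 20 normalized counts, where it lies, 151 were called higher and 33 lower. Ahi1, which encodes the Joubert syndrome protein jouberin, rose 3.59-fold, from 77.2 ± 7.70 to 277 ± 27.4 normalized counts, by 1.83 ± 0.10 on the log2 scale (limma adjusted p = 4.43e-09). B9d2, a small protein of the same module, rose 2.21-fold, and Tmem67, Als2cr4 (Tmem237), Rpgrip1l and Invs rose by 1.85, 1.24, 0.63 and 0.26 on the log2 scale. The call of Invs was lost in 4 of 10 fits that each left out 1 library.

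**Figure D2:**
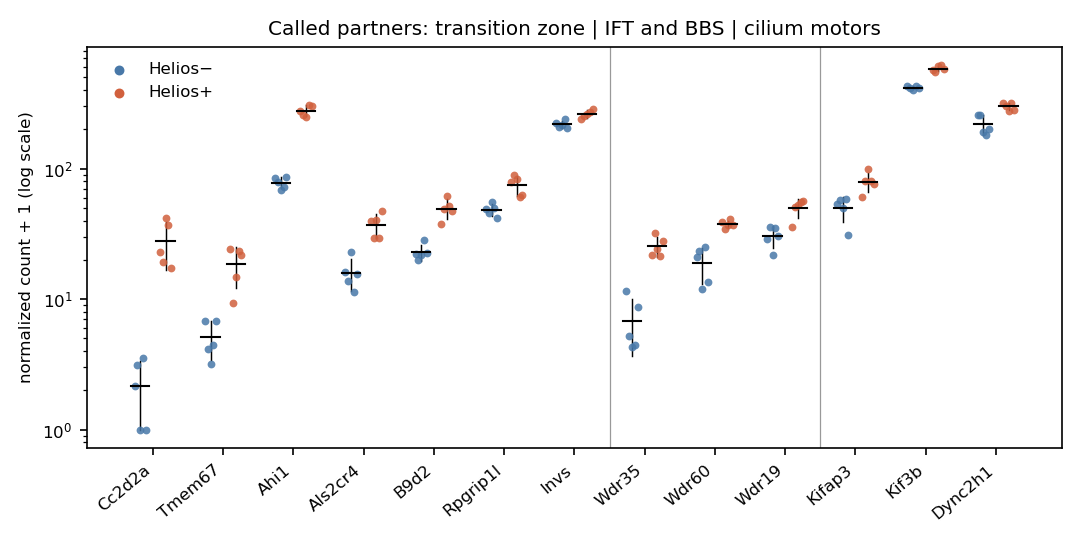
Normalized count + 1 (log axis) per library for the called partners at the transition zone (left), in IFT and dynein-2 (middle) and among cilium motors (right). Each point is a library, horizontal bars are means and vertical bars the SD, cut off at 1 where it reaches below 0. All 13 genes are higher in Helios+ cells, and Cc2d2a has 6 reads over the 5 Helios- libraries.

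Limma called 0 of the 9 members that act in centriole duplication, where it called 24.8% of all genes tested. At an unadjusted limma p under 0.05, Cep76 and Cep78 were lower and 0 were higher, and edgeR and DESeq2 called 0 of the 9. With the replicate block limma called Cep152 and Cep76 lower (adjusted p = 0.0245 and 0.0389). Cep192, which recruits the duplication kinase Plk4 to centrioles, had 931 ± 74.99 normalized counts in the Helios- population and 931 ± 70.6 in Helios+ cells. Cep120, needed for centriole elongation, had 674 ± 35.0 and 653 ± 47.5. Cep152, the other scaffold for Plk4, had 352 ± 42.3 and 308 ± 48.8 and was lower in Helios+ cells in 5 of 5 pairs. Cep78 had 51.5, 47.6, 48.1, 49.6 and 48.7 normalized counts in the 5 Helios- libraries and 22.0, 46.8, 40.2, 44.7 and 35.9 in Helios+ libraries. These groups did not overlap, yet the test gave an adjusted p of 0.141. Cep135, Cep63, Cep57 and Cep57l1 had log2 changes between -0.05 and 0.15.

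Of 26 partners in duplication, 2 were higher and 1 was lower (11.5% called, against 24.8% of all genes tested). Haus3, of the augmin complex, rose by 0.45 and the centrin Cetn2 by 0.36 on the log2 scale, and Spice1, a centriole and spindle protein, fell by 0.46. The call of Cetn2 was lost in 6 of 10 fits that each left out 1 library. Plk4 had a log2 difference of 0.27 (limma adjusted p = 0.122) and Sass6, of the cartwheel, of -0.02. Among 8 Cep genes tested that carry other names, 1 was higher, 4922501C03Rik (Cep162, at the axoneme base), by 0.38, and 1 lower, Cenpj, a regulator of centriole length, by 0.51 on the log2 scale.

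At the older centriole, Cep97 was lower and Cep164 had nearly equal means. Cep97, which with CP110 caps the centriole and holds back cilium assembly (chromosome 16, 55899888 to 55934855, minus strand), had 741, 633, 590, 694 and 643 normalized counts in Helios- libraries. Helios+ libraries had 506, 490, 485, 512 and 577. The groups did not overlap, and the lowest Helios- library, replicate 3, lay just above the highest Helios+ library, replicate 5. The level was 1.28-fold lower, a log2 difference of -0.36 ± 0.08 (limma adjusted p = 0.00239). Cep164, of the distal appendages that dock the centriole to the membrane, had 368 ± 40.2 and 370 ± 20.4 (limma adjusted p = 0.94).

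Genes of centrosome cohesion and microtubule anchoring moved in both directions, with 2 of 7 higher and 2 lower, where 24.8% of all genes tested were called. The higher genes were Ccdc46 and Cep250, and the lower genes Cep350 and Cep68. Ccdc46 is named singly by the rule, with its difference known beforehand, and reached the minimum mean only through its Helios+ libraries. Without Ccdc46, Cep250 was the only higher call of this role. The difference of Ccdc46 was the largest among the 41 genes. Ccdc46, now Cep112, encodes a coiled-coil protein of the centrosome (chromosome 11, 108425192 to 108860615, plus strand). It had 1.17, 2.12, 3.28, 1.71 and 3.89 normalized counts in the 5 Helios- libraries and 190, 146, 116, 186 and 145 in Helios+ libraries. The 5 Helios- libraries held 12 reads of it together and the 5 Helios+ libraries 807. The difference in means was 64.3-fold, with a log2 difference of 5.56 ± 0.25 (limma adjusted p = 7.68e-10). Only 1.30% of its exon bases are shared with another gene, an antisense RNA, and whether counting used strand is not given in the sources used here.

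Cep68 and Cep250 both act in the linker that holds the centrioles of a pair together, and they moved in opposite directions. Cep68 (chromosome 11, 20227037 to 20249429, minus strand) had 431, 442, 470, 430 and 403 normalized counts in the 5 Helios- libraries and 313, 309, 281, 282 and 271 in Helios+ libraries. The groups did not overlap, and each was tight. It was 1.49-fold lower in Helios+ cells, a log2 difference of -0.58 ± 0.07 (limma adjusted p = 1.99e-05). Cep250, which encodes the linker's anchor C-Nap1 (chromosome 2, 155956458 to 155998900, plus strand, 11.1% of exon bases shared with a gene on the other strand), had 1342, 1074, 795, 1134 and 963 normalized counts in Helios- libraries and 1536, 1363, 1154, 1348 and 1343 in Helios+ libraries. The groups overlapped, because Helios- replicate 1 was above Helios+ replicate 3, but the Helios+ library was higher in 5 of 5 pairs of equal number. The log2 change was 0.36 ± 0.12 (limma adjusted p = 0.0356, and 1.1e-05 with the replicate block). The call without the block was lost when any of Helios+ replicates 1, 2, 4 and 5 or Helios- replicates 2, 3 and 5 was left out alone, with adjusted p up to 0.0842.

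Cep350, a large protein of centriole stability and microtubule anchoring (chromosome 1, 155844964 to 155973255, minus strand), had 4171, 4048, 3505, 3949 and 3511 normalized counts in the 5 Helios- libraries and 3226, 3328, 3130, 3436 and 3353 in Helios+ libraries. Helios+ libraries were all lower, but the groups nearly touched. The change was small, -0.22 ± 0.07 on the log2 scale (limma adjusted p = 0.0305, and 0.00076 with the block). The call was lost when any of Helios+ replicates 1, 2, 3 and 5 or Helios- replicates 2 and 4 was left out alone, with adjusted p up to 0.0799, and with quantile normalization (adjusted p = 0.288). Cep170, a protein of the subdistal appendages, had 589 ± 43.3 and 596 ± 28.2. Cep70 had a log2 difference of 0.30 and was called with the block alone (limma adjusted p = 0.0465), and Cep72, a satellite protein, of -0.24.

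**Figure D3:**
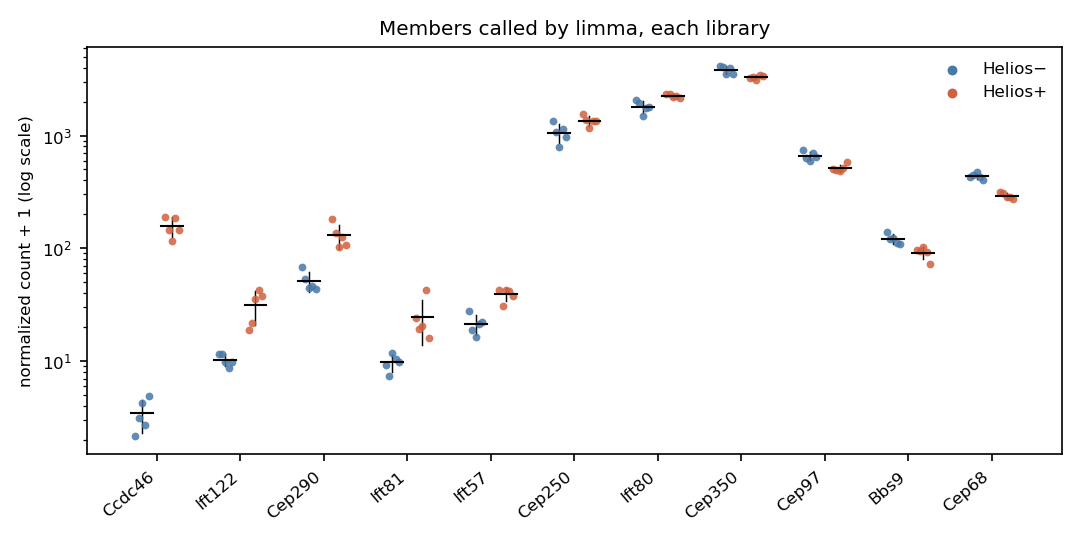
Normalized count + 1 (log axis) per library for the 11 genes called by limma, ordered by log2 change, with bars for mean and SD. Ccdc46 goes from at most 3.89 normalized counts in Helios- to at least 116 in Helios+ libraries, and Cep250 is the only gene shown whose groups overlap.

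Of 16 tested genes of the pericentriolar matrix and satellites, 1 was higher and 3 were lower (25% called, near the 24.8% of all genes tested). The lower genes were Pcnt and Nin, large scaffold proteins of the centrosome, and Bicd2, a dynein adaptor, with log2 changes of -0.23, -0.28 and -0.26. The call of Pcnt was lost in 7 of 10 fits that each left out 1 library. The higher gene was Bicd1, the paralogue of Bicd2, at 164 ± 7.13 against 2.69 ± 1.35 normalized counts. Bicd1 reached the minimum mean only through its Helios+ libraries. Bicd1 had 155 to 174 normalized counts in Helios+ libraries and at most 4.69 in Helios- libraries, beside 116 to 190 and at most 3.89 for Ccdc46.

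Cep55, which acts in the last step of cytokinesis, had 4.69, 6.35, 10.9, 7.70 and 10.7 normalized counts in the 5 Helios- libraries and 17.8, 10.04, 11.1, 10.7 and 20.9 in Helios+ libraries. The groups overlapped, and it was not called (log2 change 0.73 ± 0.32, limma adjusted p = 0.116). Of 18 division genes tested, 8 were higher and 0 lower, where 14.1% of all genes tested were called higher, with 0 lower also at an unadjusted limma p under 0.05, and edgeR and DESeq2 called 10 higher and 0 lower. Among them Kif11 rose 2.97-fold, Kif20a (29.3% of exon bases shared with another gene) 2.43-fold and Top2a 2.23-fold. The summed level of the list of 20 ran from 884 to 1346 normalized counts in the 5 Helios- libraries and from 1749 to 2360 in Helios+ libraries. The part of dividing cells in the differences of the centrosome and IFT genes was not tested.

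Cep110 (Cntrl, centriolin, a subdistal appendage protein) showed how strongly some of these genes varied with the replicate number. It had 3305, 2451, 1714, 2655 and 2224 normalized counts in the 5 Helios- libraries and 3172, 2512, 2015, 2870 and 2501 in Helios+ libraries 1 to 5. Replicate 1 was the highest and replicate 3 the lowest in both populations, and the log2 difference between populations was 0.10 ± 0.16 (limma adjusted p = 0.711). Cep250 and Cep135 were likewise lowest in replicate 3 of both groups. Over the 41 genes tested, the median deviation from the group mean on the log2 scale was 0.17 and 0.10 in replicate 1 of Helios- and Helios+, and -0.13 and -0.08 in replicate 3. Of the 41 genes, 28 and 27 were above their group mean in replicate 1 of Helios- and Helios+, and 11 and 12 in replicate 3. The median deviation of all genes tested lay between -0.01 and 0.02 in these 4 libraries. Limma blocked on replicate number called 10 of the 41 genes higher and 6 lower (39.0%), where it called 18.9% of all genes tested higher and 18.5% lower (37.3% in all). All 11 calls of the fit without the block were among them, and the 5 added were Bbs12, Cep70, Ift74, Cep76 and Cep152.

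**Figure D4:**
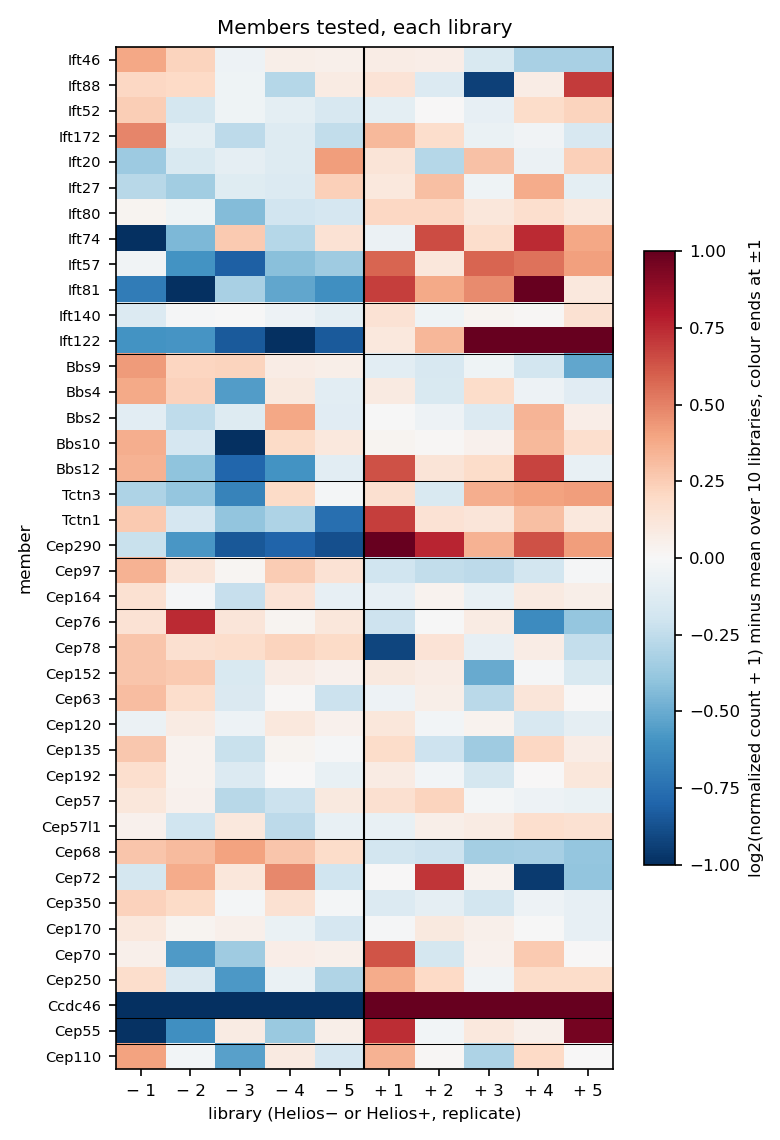
Log2(normalized count + 1) minus its mean over the 10 libraries for 40 of the 41 genes tested (rows, in blocks by role from IFT-B at the top to Cep110 at the bottom) in each library (columns). Colours end at 1 in either direction, which Ccdc46 exceeds in every library. Cep110, in the bottom row, is reddest in replicate 1 and bluest in replicate 3 of both populations.

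A list of transcription factors drawn up for cilium genes gave few calls. It took in RFX factors at large and the partner genes Rfxank and Rfxap, so not every gene on it is a known activator of cilium genes. Of 8 tested, 1 was higher and 0 lower (12.5% called, against 24.8% of all genes tested), with 0 lower also at an unadjusted limma p under 0.05 and by edgeR and DESeq2. It was Myb, which is also a regulator of blood cell and T cell development, at 406 ± 39.2 against 170 ± 47.2 normalized counts, a log2 difference of 1.29 ± 0.15 (limma adjusted p = 1.11e-05). The RFX factors were present, Rfx7 at 1309 ± 50.2 and 1339 ± 51.9, Rfx1 at 341 ± 22.1 and 338 ± 30.3, Rfx3 at 325 ± 31.3 and 304 ± 16.2, and Rfx1, Rfx2, Rfx3, Rfx5 and Rfx7 were not called. With the replicate block Rfx5 was called higher (limma adjusted p = 0.00183). Of 20 genes of motile cilia, 6 were in the table and only Spef2 reached the minimum mean (limma adjusted p = 0.45).

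Hedgehog signals pass through the cilium in most tissues, and 4 of 6 tested genes of that pathway differed, 2 in each direction, where 24.8% of all genes tested were called. The receptor Ptch1 rose from 262 ± 40.4 to 402 ± 21.8 normalized counts, by 0.63 ± 0.10 on the log2 scale (limma adjusted p = 0.000206). Kif7, a kinesin of the ciliary tip with 20.3% of exon bases shared with other genes, rose 2.01-fold. The transducer Smo was lower in Helios+ cells, at 6.36 ± 2.94 against 14.9 ± 3.17 normalized counts, a log2 difference of -1.21 ± 0.36 (limma adjusted p = 0.0209), and Sufu, an inhibitor of the pathway, changed by -0.26 (adjusted p = 0.0412). Smo reached the minimum mean only through its Helios- libraries. The call of Sufu was lost in 8 of 10 fits that each left out 1 library. Over all these lists of partners together, 28 of 113 genes tested were higher and 7 lower (31.0%), where 24.8% of all genes tested were called, 14.1% higher and 10.7% lower.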

How the data were processed

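Total RNA of 5 Helios+ and 5 Helios- Treg cell samples was sequenced from stranded SMARTer libraries, per the labels' protocols. The authors deposited normalized counts per gene, a signal that is not whole. HISAT2 2.0.4, HTSeq, DESeq2 and build mm10 are named per the submitters' processing notes, without their roles, while annotation and strand setting are not stated there. Dividing by each library's smallest step gave whole reads for 100% of values (tolerance 0.001), so recovered totals of 4872348 to 6948692 are taken as depth.

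The 10718 of 13252 genes with a mean of at least 10 were tested by limma 3.58.1 in R 4.3.3 (trend, robust) on log2(value + 1), with Benjamini-Hochberg adjustment at 0.05. On recovered reads edgeR 4.0.16 (quasi-likelihood) called 2637 genes and DESeq2 1.42.0 called 2846. Other alternatives were the replicate block, pseudocounts, filters, TMM and quantile scaling, and libraries left out. Scripts were tested on simulated data.

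Libraries of equal replicate number deviated together: correlations of their deviations from group means were 0.1455 to 0.4807, all above 0.1, and all 10 libraries correlated best with their own number. The numbers were therefore taken to pair the libraries, a hint from the data and not from the labels, and blocked values are given where they change a call.

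Members and lists were chosen with earlier results of these data known, and the difference in Ccdc46, which the membership rule names singly, was among them. Genes of Cep proteins that the table lists under other symbols, such as Ccdc41, are no members and stand in a list of partners. Named were all called members, the 2 most abundant tested members of each role, the 3 called genes of smallest p in each list of partners and the 2 most abundant markers of each cell type. Other genes were named after their values were seen, and a few genes are not reported by name here. Exon lengths and overlaps use GENCODE M21 (GRCm38).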

Additional observations from a re-analysis of the deposited data

Results flagged for a closer look

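In 5 of 94 groups of 5 libraries tested over the 47 genes, 1 library stood far from the other 4 by Dixon's criterion, and chance alone marks about 1 group in 20. Ift20, which in T cells carries receptor traffic, had 152 normalized counts in Helios- replicate 5, where the other Helios- libraries had 87.9 to 106. Ift172, the largest IFT-B subunit, had 138 in Helios- replicate 1 against 81.9 to 92.1 in the others. The BBSome gene Bbs2 had 58.1 in Helios- replicate 4 against 37.0 to 41.0. Cep76, which limits centriole duplication, had 69.9 in Helios- replicate 2 against 41.9 to 45.7. The tectonic gene Tctn1 had 33.5 in Helios+ replicate 1 against 22.0 to 25.3. These values fall in 5 different libraries, and the 5 genes were not called by limma in the main fit. Among the alternatives without the replicate block, Cep76 was called lower with quantile normalization and Tctn1 higher without Helios- replicate 1.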

How the results depend on the processing

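Over all alternatives 4 to 10 of the centrosome and IFT genes were called higher and 2 to 6 lower, and 0 called values changed sign. The 4 higher came with a minimum mean of 50, where 26 genes were tested and Ift122, Ift57 and Ift81 were left out, and where 16 partner genes were higher. With 1 library left out, 6 to 9 members were higher and 2 to 4 lower, and 25 to 34 partner genes were higher and 4 to 9 lower. Without Helios+ replicate 5 these were 2 lower members and 4 lower partners. Ikzf2 kept a log2 difference of 4.36 to 4.48. With both libraries of replicate 1, 2, 4 or 5 left out, alternatives chosen after seeing the data, 2 members were lower, and with replicate 2, 4 or 5 left out 3, 2 and 1 partner genes were lower. The cause was not tested.

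With the replicate block, limma and edgeR each called 16 of the 41 members, 10 higher and 6 lower, with all 11 calls of the unblocked fit among them. DESeq2 added Bbs12, and TMM scaling and both pseudocounts changed none of the 11 calls. Quantile normalization lost Cep350 and added 2 members, Cep76 among them. At 4872348 to 6948692 reads, 6 members lay below the chosen minimum mean of 10 and were left out of the main fit. Limma with no filter on low values tested all 47 and called 8 higher and 4 lower. Whether depth or low expression kept the 6 below the minimum was not tested.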
